A study of Mus musculus with 7 samples.

Results

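Transcripts of cytosolic ribosomal proteins were compared between the livers of 4 glycerol kinase knockout pups and 3 wild type littermates. All pups were male, of the C57BL/6J strain and taken at day of life 1. Livers were extracted separately and each was measured on 1 Affymetrix Mouse Genome 430 2.0 array. The submitters describe pups of this age as free of signs of glycerol kinase deficiency, so the comparison precedes overt disease. How the null allele was made, and which litter each pup came from, are not given in the sources used here. Members were the probe sets with 1 platform gene symbol of the ribosomal protein form (Rpl or Rps with a number and an optional letter, Rplp0 to Rplp2, or Rpsa), without the Rps6k kinases. The rule used no measured value. It gave 105 of 45101 probe sets, which stand for 49 genes: 48 probe sets of 26 large subunit genes and 57 probe sets of 23 small subunit genes. A further 110 probe sets carried several symbols of which at least 1 fitted the rule, and no gene was named from them. Rpl3, Rpl5, Rpl10, Rpl10l, Rplp1 and Rps27a had no probe set with a single symbol and are therefore not described.

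Ribosomal proteins coat the ribosomal RNA of the large and the small subunit and are made in matched amounts. Their mRNAs begin with a run of pyrimidines, the terminal oligopyrimidine tract, through which the kinase mTOR sets how actively they are translated. In newborn liver they serve growth of hepatocytes and of the red cell precursors that the organ still holds. Some also act outside the ribosome: Rpl5 and Rpl11 bind the p53 inhibitor Mdm2, and Rps6 is the protein that S6 kinase was named for.

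Start site sequences show what many of these genes share. Of the 49 genes, 43 had windows in RefSeq's table for build GRCm38.p6, 51 windows in all, some of one gene sharing bases. An unbroken run of at least 7 C or T bases touched the 15 bases from 5 before to 10 after the start in 45.1% of these windows, against 16.3% of 32851 windows of all genes. This run was added after the sequences had been seen, so its shares are a description only. The motif CTTTC, which such a run can contain, lay within those 15 bases on the transcribed strand in 11.8% of member windows and 1.66% of all. CCGGAAG, an ETS element bound by GABP, was found on either strand of the 250 bases before the start in 33.3% of member windows and 6.91% of all. For AAGATGGC, a YY1 element searched on both strands of the whole window, the shares were 7.84% and 2.75%, and for TATAAA, searched upstream on the transcribed strand, 3.92% and 7.59%. Sequences below run from 40 bases before the start to 15 after it and are shown for genes whose values are described, with capitals for the pyrimidine run. Rpl22 is included as a gene with a called probe set whose annotated start has no such run. The other genes shown all have a run, so they do not reflect how often it occurs. Among other genes described below, Rpl11, Rpl27, Rpl37, Rplp0, Rpl41, Rps19, Rps3 and Rpsa have none in the window examined for each.
Rps9 (chr7:3704001-3704055, plus strand): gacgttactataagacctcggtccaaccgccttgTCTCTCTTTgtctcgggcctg
Rps24 (chr14:24490638-24490692, plus strand): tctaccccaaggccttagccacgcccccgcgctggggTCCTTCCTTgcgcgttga
Rps6 (chr4:86857353-86857407, minus strand): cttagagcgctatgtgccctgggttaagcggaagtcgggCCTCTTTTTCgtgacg
Rps10 (chr17:27635230-27635284, minus strand): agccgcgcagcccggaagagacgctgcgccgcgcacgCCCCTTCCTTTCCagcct
Rpl12 (chr2:32961672-32961726, plus strand): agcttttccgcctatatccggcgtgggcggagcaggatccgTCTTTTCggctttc
Rpl22l1 (chr3:28805468-28805522, plus strand): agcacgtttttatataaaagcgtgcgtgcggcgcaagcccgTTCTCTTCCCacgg
Rpl22 (chr4:152325686-152325740, plus strand): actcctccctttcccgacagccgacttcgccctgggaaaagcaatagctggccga

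The ETS element is shown for a pair of members, a large and a small subunit gene, with the element in capitals. It began 23 bases before the start in Rpl37 and 29 bases before it in Rps10. These matches describe letters in a window and not bound sites.
Rpl37 (chr15:5116578-5116608, plus strand): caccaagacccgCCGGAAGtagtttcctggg
Rps10 (chr17:27635255-27635285, minus strand): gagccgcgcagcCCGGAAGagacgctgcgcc

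Intensities below are those deposited, in arbitrary units, and fold changes are knockout minus wild type on the log2(intensity + 16) scale, with limma's standard error. A probe set was tested where its mean lay above the median of all, and called at limma's Benjamini-Hochberg adjusted p under 0.05 over 22518 tested probe sets. Of the 105 member probe sets 91 were tested, from 46 genes, and Rpl3l, Rpl39l and Rps16 had none tested. Over the whole series 955 probe sets were called, of which 55.4% were higher in knockout. With arrays scaled to equal medians 759 were called, of which 71.3% were higher. Depth on arrays is the signal itself, and the number of arrays limits the precision. The liver labels fitted the markers: Alb and Apoa1 had wild type mean intensities of 30227 and 40644, whereas the T cell genes Cd3e and Cd3g did not pass the filter. No 2 arrays held identical values.

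Ribosomal protein transcripts leaned slightly lower in knockout liver, and few single probe sets passed the test. Rpl22, Rpl7 and Rps9 each had 1 called probe set, all lower in knockout, and 0 members were called higher. These 3 of 91, or 3.30%, compare with 4.24% of all tested probe sets called in either direction, 1.89% lower and 2.35% higher, so the number of calls is near the background and is no result about the members. At an unadjusted p under 0.05, 22 members were lower and 0 higher, where 11.8% and 9.97% of all tested probe sets were. At an adjusted p under 0.1 limma called 9 of 91 members lower and 0 higher, against 4.59% and 4.44% of all. In 31 of 91 members, 34.1%, every knockout array lay below every wild type array, against 11.8% of all tested probe sets. The reverse order occurred in 0 members and in 9.40% of all.

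The lean was broad and small. Of the 91 tested members 75 were lower in knockout, 82.4%, against 54.2% of all tested probe sets, and their median log2 fold change was -0.13 against -0.03. Members lower in knockout numbered 58 with arrays scaled to equal medians, where 47.0% of all were lower, and 66 after quantile normalization, where 52.1% were. Wild type 1 had the highest of the 7 values in 45 of the 91 members, wild type 3 in 16 and knockout 3 in 18. Without wild type 1, 62 of 91 were lower, 68.1% against 52.5% of all, and without any other single array 70 to 80 were. With wild type 1 left out, 34 members had no overlap between groups in the lower direction, 37.4% against 17.2% of all tested probe sets.

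**Figure D1:**
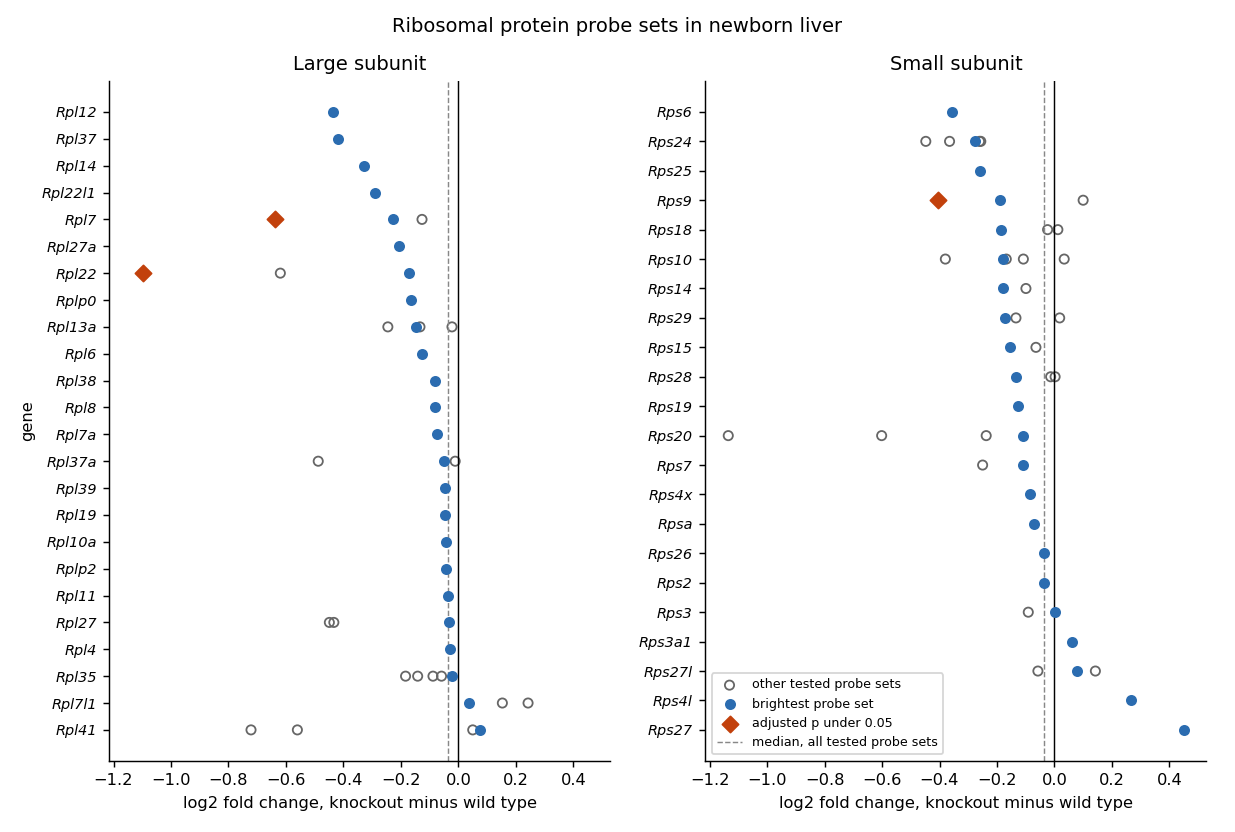
Log2 fold change (knockout minus wild type, x axis) of each tested probe set for 24 large and 22 small subunit genes (y axis). Filled circles are each gene's brightest probe set, open circles its others, and diamonds the 3 called probe sets of Rpl22, Rpl7 and Rps9; the dashed line is the median of all tested probe sets, and most circles lie left of it.

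Among large subunit genes the widest separation was in Rpl22, a protein known for its part in lymphocyte development and for holding down the transcript of its own paralogue. Its probe set 1448398_s_at read 1893, 2123 and 2319 in wild type 1 to 3, and 935.3, 1258, 618.7 and 1238 in knockout 1 to 4. No knockout liver reached the lowest wild type, and the mean fell from 2112 ± 213 to 1013 ± 301 (SD, n = 3 and 4), 48.0% of wild type. The log2 fold change was -1.10 ± 0.23 (limma adjusted p = 0.0336). It did not pass without any one of the wild type arrays (adjusted p 0.0801, 0.107 and 0.149 without wild type 1, 2 and 3), nor with dim probe sets kept in (0.0581) or without limma's trend (0.0535).

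The other Rpl22 probe sets did not pass. Probe set 1416603_at was level in wild type, at 9009, 9317 and 9303, and split within knockout, at 8451, 3765, 3716 and 10861 in knockout 1 to 4. Knockout 2 and 3 were thus low while knockout 4 was above every wild type array. Its log2 fold change was -0.62 ± 0.34 (limma adjusted p = 0.324). The brightest, 1453118_s_at, read 22698, 20775 and 20764 in wild type and 18788, 18594, 19137 and 19490 in knockout. The groups did not overlap there either, but the difference was only -0.17 ± 0.08 (limma adjusted p = 0.257). The actin control's ratio of its 3′ to its 5′ probe set, a measure of RNA integrity, was 1.12 and 1.45 in knockout 2 and 3, the lowest and highest of the 7 arrays, and its part in the split was not tested.

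Rpl7, a large subunit protein with close copies elsewhere in the genome, had lower values at all 3 of its probe sets and was called at 1. Probe set 1426163_x_at read 13292, 12328 and 13418 in wild type and 9587, 7302, 6842 and 10173 in knockout. All knockout values lay below all wild type values, with knockout 2 and 3 lowest. The mean was 65.1% of wild type, with a log2 fold change of -0.64 ± 0.15 (limma adjusted p = 0.0436), and the call was lost without wild type 1, 2 or 3 or without knockout 2 or 3 (highest adjusted p = 0.173, without wild type 3). It was also lost with equal array medians, with dim probe sets kept in and without the trend (adjusted p 0.0872 to 0.0883). The brightest probe set, 1415979_x_at, was at 20659 ± 843 in wild type and 17637 ± 533 in knockout (SD, n = 3 and 4), a log2 fold change of -0.23 (limma adjusted p = 0.145).

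Rpl27, a large subunit protein found mutated in Diamond-Blackfan anaemia, gave a like picture without a call. Probe set 1453096_x_at read 7820, 8270 and 8873 in wild type and 6724, 5356, 6293 and 6043 in knockout, 73.4% of the wild type mean (limma adjusted p = 0.0558). Probe set 1448217_a_at was at 74.2% (limma adjusted p = 0.0671), and groups did not overlap in either. The brightest, 1416099_at, at 24525 ± 1391 and 23960 ± 762 (SD, n = 3 and 4), overlapped, with a log2 fold change of -0.03 and a 95% interval from -0.21 to 0.15.

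**Figure D2:**
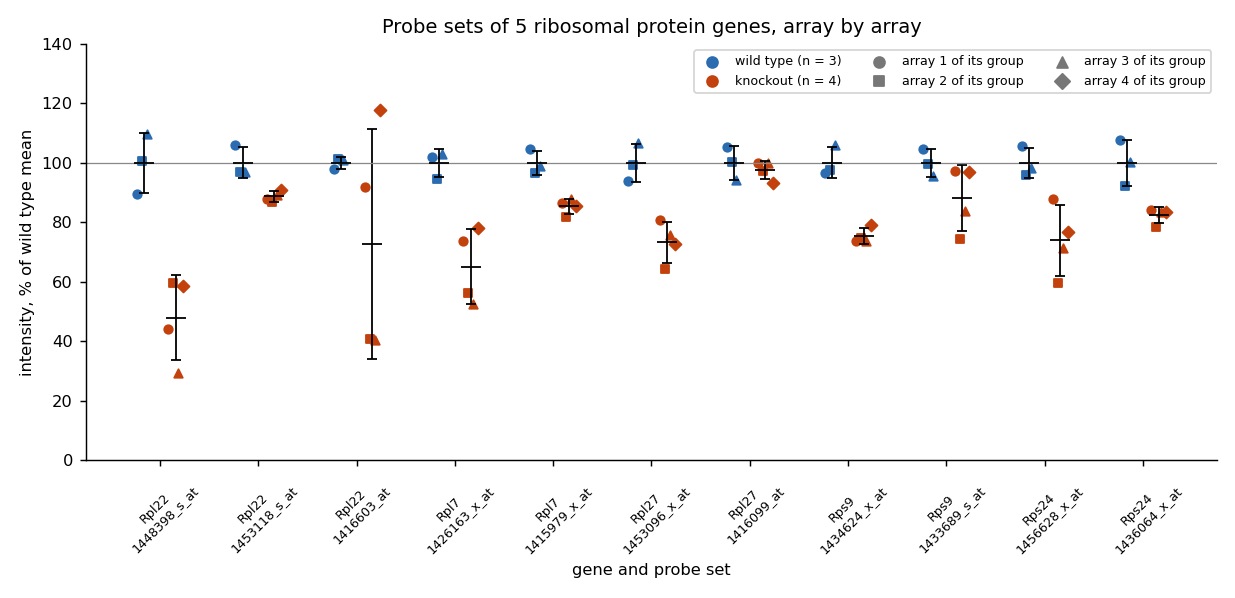
Intensity as a percentage of the wild type mean (y axis, from 0) for 11 probe sets of Rpl22, Rpl7, Rpl27, Rps9 and Rps24 (x axis); points are single arrays with the shape giving the array's number, and bars are the mean and SD of 3 wild type or 4 knockout arrays. The Rpl22 probe set 1448398_s_at has its knockout mean at 48.0% of wild type, and 1416603_at shows knockout 2 and 3 apart from knockout 1 and 4.

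Of the other large subunit genes with the smallest p by their brightest probe set, Rpl12, of the stalk base, was at -0.44 ± 0.19 (limma adjusted p = 0.220) and Rpl37 at -0.42 ± 0.19 (limma adjusted p = 0.226). Both probe sets were dimmer than most members, with wild type means of 407.6 and 2531. Without 1 array Rpl12 ran from -0.50 to -0.29 (without knockout 3), and Rpl37 from -0.52 to -0.25 (without knockout 2). Rpl22l1, the paralogue of Rpl22, read 15819, 15130 and 16567 in wild type and 12789, 12568, 12074 and 14460 in knockout. It was therefore lower in all 4 knockout livers, as Rpl22 was at 2 of its 3 probe sets, at -0.29 ± 0.10 (limma adjusted p = 0.120). The stalk recruits elongation factors to the large subunit. Its core protein Rplp0 read 31117, 27161 and 29228 in wild type and 25996, 24655, 26734 and 26477 in knockout, again without overlap, at -0.17 ± 0.08 (limma adjusted p = 0.275). Rplp2, a further stalk protein, was at -0.04 with a 95% interval from -0.25 to 0.16, and above 0 with equal array medians. Rpl11, of the Mdm2 binding pair, was at -0.04 (interval -0.25 to 0.17, also above 0 with equal medians), and Rpl13a, known for a role in translational silencing during inflammation, at -0.15 (interval -0.34 to 0.05). None of these intervals reaches the -1.10 of the called Rpl22 probe set, which was the lowest value of any large subunit probe set. The interval of the brightest Rpl22 probe set, from -0.35 to 0.01, does not reach it either. The comparison therefore does not set these genes apart from Rpl22.

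Higher values among large subunit genes were few: by the brightest probe set 2 of 24 genes were higher, Rpl41 and Rpl7l1, with log2 fold changes of 0.07 and 0.04. Rpl41, the smallest ribosomal protein, split by probe set. Its bright probe sets, at mean intensities of 31459 and 17856, were at 0.07 and 0.05, and its dim ones, at 244.1 and 150.6, at -0.72 and -0.56, with groups that did not overlap (limma adjusted p = 0.0949 and 0.176). Rpl7l1, a paralogue of Rpl7, was higher at all 3 tested probe sets, at 0.04, 0.15 and 0.24, none past the test (limma adjusted p 0.546 to 0.912). Rpl39, which lines the exit tunnel, was at -0.05 with an interval from -0.38 to 0.28, and above 0 with equal medians. Its paralogue Rpl39l and the muscle paralogue Rpl3l were dim, at wild type means of 44.3 and 15.4, and were not tested.

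Among small subunit genes Rps9, whose bacterial relative is known for its part in decoding accuracy, had the only called probe set. Probe set 1434624_x_at read 11453, 11560 and 12568 in wild type and 8750, 8885, 8763 and 9391 in knockout. The groups were narrow and clearly apart, at 11860 ± 615 and 8947 ± 302 (SD, n = 3 and 4), 75.4% of wild type. The log2 fold change of -0.41 ± 0.09 (limma adjusted p = 0.0420) lost its call without any single array other than knockout 3 (highest adjusted p = 0.204, without wild type 3). It was also lost with equal array medians, with dim probe sets kept in and without the trend (highest adjusted p = 0.121). The brightest probe set of Rps9, 1433689_s_at, was at -0.19 ± 0.11 (limma adjusted p = 0.349), and the dim 1426958_at at 0.10 ± 0.27 (limma adjusted p = 0.870).

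Rps24, mutated in some Diamond-Blackfan anaemia patients, had 5 tested probe sets with lower values, of which limma called 0 (4 at an unadjusted p under 0.05). Their log2 fold changes ran from -0.45 to -0.26, and in 4 of them the groups did not overlap. The brightest, 1436064_x_at, read 29735, 25443 and 27720 in wild type and 23302, 21666, 23038 and 23026 in knockout, 82.4% of wild type (limma adjusted p = 0.0972). Rps20, which lies in the head of the small subunit, ranged more widely. Its bright probe sets were at -0.11 and -0.24 and its dim ones at -0.60 and -1.14, the last at 247.2 ± 96.4 in wild type and 106.6 ± 49.1 in knockout (SD, n = 3 and 4, limma adjusted p = 0.0924).

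By their brightest probe sets Rps18, Rps10, Rps14 and Rps29 lay between -0.19 and -0.17 (limma adjusted p 0.181 to 0.244), each without overlap between groups. The tightest was Rps18, where 1455572_x_at read 33739, 30882 and 31760 in wild type and 28110, 28191, 28271 and 28254 in knockout. Its other tested probe sets, 1435712_a_at and 1448739_x_at, were at 0.01 and -0.02 and overlapped. Groups also overlapped at 1416719_a_at (0.03) and 1456497_x_at (-0.11) of Rps10, 1436586_x_at (-0.10) of Rps14 and 1415833_x_at (0.02) of Rps29. They did not overlap at 1434854_a_at (-0.17) and 1439374_x_at (-0.38) of Rps10 and 1437413_x_at (-0.13) of Rps29. For Rps10, also known from Diamond-Blackfan anaemia, 1439374_x_at read 19397, 12286, 14074 and 19331 in knockout 1 to 4, so that knockout 2 and 3 were again low, against 19881 to 21748 in wild type. Rps6, the S6 kinase substrate, read 1382, 1510 and 1579 in wild type and 1144, 1202, 902.8 and 1446 in knockout, at -0.36 ± 0.17 (limma adjusted p = 0.255). Rps19, the gene most often mutated in Diamond-Blackfan anaemia, was at -0.13 (interval -0.36 to 0.10), and Rpsa, also known as the laminin receptor, at -0.07 (interval -0.25 to 0.11).

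By their brightest probe sets 5 of 22 small subunit genes were higher in knockout, 0 of them called, with 0 at an unadjusted limma p under 0.05: Rps27, Rps4l, Rps27l, Rps3a1 and Rps3. The only single-symbol probe set of Rps27 was dim, at 195.2, 231.5 and 271.7 in wild type and 514.9, 200.3, 152.1 and 652.7 in knockout. Knockout 1 and 4 were high and knockout 2 and 3 within or below the wild type range, so the 0.45 ± 0.43 (limma adjusted p = 0.594) says little. Rps4l stood at 1715, 1582 and 1515 in wild type and 2937, 1835, 1560 and 1645 in knockout, its difference resting on knockout 1 (0.27 with all arrays, 0.06 without knockout 1). Rps27l, a paralogue of Rps27 and a p53 target, was at 0.08 with an interval from -0.16 to 0.32. Rps3a1 was at 0.06 and Rps3 at 0.00.

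The size of the lean varied with the brightness of the probe set. The 44 tested members with a mean intensity of at least 20000, which is above 99.4% to 99.5% of all probe sets of an array, had a median log2 fold change of -0.07. For 18 members between 10000 and 20000 the median was -0.23, for 14 between 1000 and 10000 it was -0.19, and for 15 under 1000 it was -0.33. In the same classes the other tested probe sets had medians of -0.04, 0.00, -0.02 and -0.04. Groups did not overlap in the lower direction in 11 of 44, 12 of 18, 4 of 14 and 4 of 15 members of these classes, from the brightest to the dimmest. The other tested probe sets had shares of 13.9%, 18.4%, 14.6% and 10.3%. In the same order, 37 of 44, 17 of 18, 9 of 14 and 12 of 15 members were lower in knockout. Of the other tested probe sets 62.4%, 49.7%, 51.9% and 55.0% were. Within genes the order was less regular: of 20 genes with over 1 tested probe set, the dimmest had the lower fold change in 12. In 11 of these genes all probe sets were lower, in 8 the signs were mixed, and Rpl7l1 was higher throughout. Whether the brightest probe sets were near the upper end of the scanner's range was not tested, and many members are of a type that can bind several transcripts, 40 with names ending in x_at, 28 in a_at and 3 in s_at. Of the 34 without such an ending 22 were tested and 0 called. Of these 16 were lower, 72.7% against 54.5% of all tested probe sets without such an ending. At an unadjusted p under 0.05 in limma 3 were lower and 0 higher, against 11.8% and 9.97% of all tested probe sets. Groups did not overlap in the lower direction in 4 of these 22. They did not in 18 of 38 tested members ending in x_at, 7 of 28 in a_at and 2 of 3 in s_at, against 11.8% of all.

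**Figure D3:**
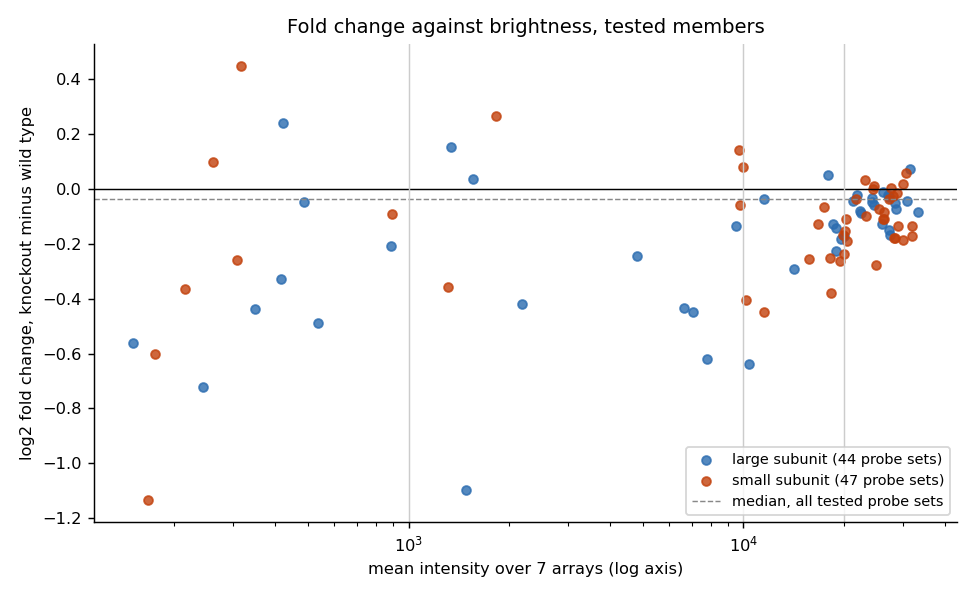
Log2 fold change (y axis) against mean intensity over 7 arrays (x axis, log scale) for the 44 large and 47 small subunit probe sets tested; vertical lines mark 1000, 10000 and 20000, and the dashed line the median of all tested probe sets. Members above 20000 lie close to 0, with a median of -0.07, and those under 1000 spread wider, with a median of -0.33.

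Values of large and small subunit genes overlapped. By the brightest probe set, 22 of 24 large and 17 of 22 small subunit genes were lower in knockout, with medians of -0.08 and -0.12. Relative to each gene's mean over the 7 arrays, the large subunit mean was 0.13, 0.04 and 0.05 in wild type 1 to 3 and -0.06, -0.09, -0.01 and -0.05 in knockout 1 to 4. The small subunit mean was 0.11, -0.01 and 0.05 in wild type and 0.03, -0.10, -0.08 and 0.00 in knockout. Thus the large subunit means did not overlap between groups, while the small subunit means did, with knockout 1 and 4 above wild type 2. With medians over genes in place of means it was the other way round. The large subunit medians overlapped, with knockout 3 at 0.0096 above wild type 2 at -0.0026. The small subunit medians did not, at -0.007 or more in wild type and -0.039 or less in knockout. The difference between subunits within an array, large minus small, ran from -0.002 to 0.05 in wild type and from -0.09 to 0.06 in knockout, so the wild type range lay inside the knockout range. Between pairs of genes, deviations from the group means had a median r of 0.34 over 276 large subunit pairs, 0.33 over 231 small subunit pairs and 0.35 over 528 mixed pairs. These medians describe the same 7 arrays with their common scaling, and the differences between them were not tested.

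As a share of the summed intensity of an array, the 105 member probe sets made up 4.65%, 4.30% and 4.44% in wild type and 4.16%, 4.12%, 4.23% and 4.13% in knockout. Every knockout array lay below every wild type array, by a small margin between wild type 2 and knockout 3. The mean share was 4.47% ± 0.18 and 4.16% ± 0.05 (SD, n = 3 and 4). For large subunit probe sets it was 1.95% ± 0.07 and 1.83% ± 0.03, and for small subunit ones 2.51% ± 0.11 and 2.33% ± 0.02. Because every array had been scaled to a common target, a change in total mRNA would not be visible in these values, and fewer cells of a type cannot be told apart from less RNA per cell in whole liver.

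**Figure D4:**
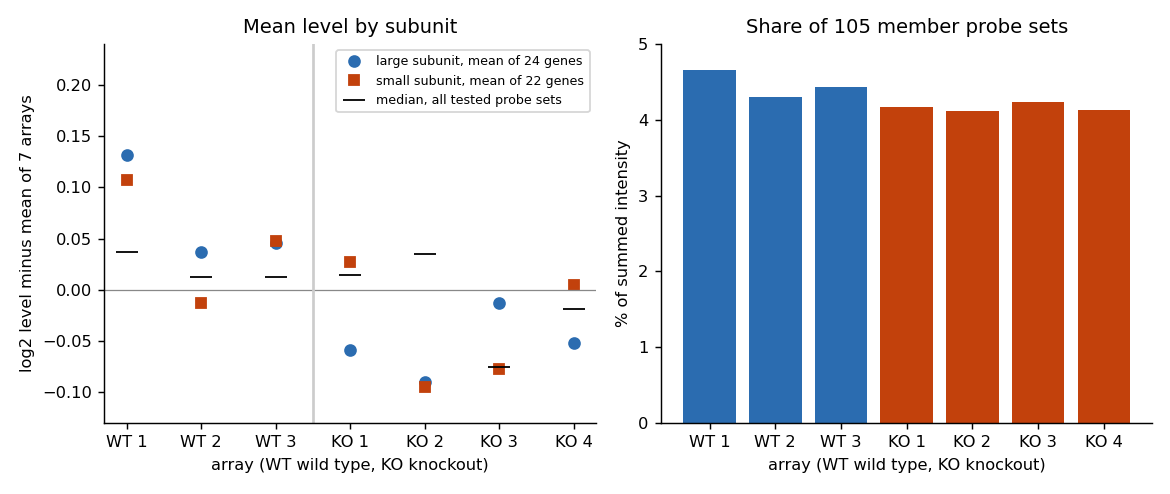
Left, mean log2 level of 24 large and 22 small subunit genes in each array minus the gene's mean over 7 arrays, with the median of all tested probe sets as a dash; right, share of the 105 member probe sets in the summed intensity of each array, from 0. Wild type arrays have shares of 4.30% to 4.65% and knockout arrays of 4.12% to 4.23%.

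The probe sets with several symbols gave a further view of the family, with no gene named. Of the 110, which list 43 ribosomal protein symbols, 28 of them absent from the members, 101 were tested. Of these 79 were lower in knockout, 78.2%, with a median of -0.08, and 24 had groups without overlap in that direction against 1 in the other, where 11.8% and 9.40% of all tested probe sets had. The only called one of the 101 was 1433549_x_at, at -0.47 (limma adjusted p = 0.0410), a share below the 4.24% called of all tested probe sets. They may bind the same transcripts as the members and are not independent of them.

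Other genes of ribosome production leaned the same way. The list of nucleolar genes for rRNA processing and assembly and RNA polymerase I had 78 tested genes, of which 60 were lower, 76.9% against 54.2% of all tested probe sets, with a median of -0.22. None was called by limma. At an unadjusted p under 0.05, 20 were lower and 0 higher, where 11.8% and 9.97% of all tested probe sets were. Wdr75, of the small subunit processome, fell nearest to the threshold, at -0.72 ± 0.18 (limma adjusted p = 0.0563), next to Gar1, of the H/ACA particles that guide pseudouridylation, at -0.64 ± 0.17 (limma adjusted p = 0.0617). Wild type 1 was the highest array in both. Wdr75 read 1303, 900.3 and 821.7 in wild type 1 to 3, and Gar1 2573, 2213 and 2161. Of 18 tested elongation factors and other mRNAs with a terminal pyrimidine tract 15 were lower, with a median of -0.16, 0 called, and 2 lower and 0 higher at an unadjusted p under 0.05. Nap1l1, a histone chaperone, was at -0.38 ± 0.11 (limma adjusted p = 0.0812) and Eif4a2, an initiation helicase, at -0.50 ± 0.17 (limma adjusted p = 0.119). Fau, a fusion of a ubiquitin-like protein with the ribosomal protein S30 and the only tested gene of those outside the symbol rule, was at 0.01 with an interval from -0.18 to 0.21.

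Among mTOR, S6 kinase and MYC genes that govern ribosome production, 2 of 29 tested genes fell and 0 rose by limma's test. The called shares of all tested probe sets were 1.89% lower and 2.35% higher. At an unadjusted p under 0.05, 6 fell and 2 rose, against 11.8% and 9.97% of all, and the median was -0.15. The 2 that rose were Mtor at 0.61 ± 0.16 (limma adjusted p = 0.0617) and Sesn3 at 0.75 ± 0.26 (limma adjusted p = 0.133). The other tested probe set of Mtor had the opposite sign. Eif4ebp1, the inhibitor of cap-dependent initiation that mTOR holds in check, read 4387, 3584 and 4442 in wild type and 2620, 3077, 2625 and 3003 in knockout, at -0.54 ± 0.13 (limma adjusted p = 0.0484). It did not pass without any one of the 7 arrays (adjusted p 0.0671 to 0.211), nor with equal medians, with dim probe sets kept in or without the trend (adjusted p 0.0797 to 0.0853). Sesn1, a stress-induced inhibitor of mTOR complex 1, read 4910, 2345 and 4397 in wild type and 1539, 1528, 1288 and 2237 in knockout, at -1.19 ± 0.26 (limma adjusted p = 0.0380). That call held without wild type 2 or knockout 4 and was lost without any other single array (highest adjusted p = 0.163, without wild type 3), with dim probe sets kept in (0.0668) and without the trend (0.0600). Of 7 tested genes of Mdm2 and p53, 6 were lower and 0 called, with 2 lower and 0 higher at an unadjusted p under 0.05. These were Cdkn1a at -1.13 ± 0.32 (limma adjusted p = 0.0750) and Ccng1 at -0.51 ± 0.15 (limma adjusted p = 0.0807).

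Erythroid, proliferation and endothelial markers had lower values in knockout, few of them past the test, and B cell markers higher ones. All 6 tested erythroid markers were lower in knockout, 2 of them called, against 54.2% lower and 1.89% called lower of all tested probe sets. Klf1 among them was near level, at -0.03 with an interval from -0.33 to 0.28. The summed intensity of erythroid markers ran from 63074 to 70818 in wild type and from 51376 to 55834 in knockout. All 5 tested proliferation markers were lower, 1 called, with sums of 35591 to 39027 and 22483 to 29432. All 5 endothelial markers were lower with 0 called by limma (2 at an unadjusted p under 0.05), at sums of 12423 to 14905 and 6756 to 12089. Hepatocyte markers overlapped, at sums of 165706 to 186427 and 157380 to 209499, with 5 of 6 higher and 0 called (0 at an unadjusted p under 0.05). All 4 tested B cell markers had higher values, with a median of 0.41, 0 called and 0 at an unadjusted limma p under 0.05. Sums of macrophage, neutrophil, B cell, megakaryocyte, stellate and cholangiocyte markers also overlapped, with 0 genes called (1 neutrophil gene at an unadjusted p under 0.05), and those of T cell markers did not, at 77.4 to 108.4 and 29.8 to 39.1 with both genes too dim to test. The part of these cell types in the ribosomal protein values was not tested.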

How the data were processed

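Liver RNA of 3 wild type and 4 knockout pups was measured on 1 array each, and groups come from the sample titles. The authors deposited 1 linear intensity for each probe set. The submitters' processing notes name GCOS without a version, and no source used here states how probes were summarised. Without its lowest and highest 2% of probe sets each array had a mean of 500.003, so arrays had been scaled to a common target. Intensities were transformed to log2(value + 16). Array medians ran from 6.76 to 6.96, within the limit of 0.2, and values were used as deposited.

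The 64 control probe sets were left out, and those above the median in mean log2 value were tested with limma 3.58.1 in R 4.3.3 (lmFit, eBayes with a trend, no covariates). Intervals are limma's at 95%. Each gene is represented by its brightest tested probe set. Names come from the platform annotation, which gave 34945 non-control probe sets 1 symbol, 932 several and 9160 none. Start site windows come from RefSeq, matched by gene ID. Figures used matplotlib 3.10.9. The fit was tested on simulated data.

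Named are members with a called probe set, the 5 of smallest p per subunit and direction, paralogues, members with known roles, the genes whose probe sets differ most, and called genes of each related list or else the 2 of smallest p. Mtor and Sesn3 were named in addition, as the genes of their list that rose at an unadjusted p under 0.05. Members and lists were chosen with earlier results of these data known. The pyrimidine run was added after the sequences were seen. The labels do not state whether replicate numbers pair the arrays. The glycerol kinase transcript itself is not reported here.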

Additional observations from a re-analysis of the deposited data

Results flagged for a closer look

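In the 4 knockout arrays, 30 probe sets were checked for 1 array far from the rest by Dixon's test, which chance meets in about 1 of 20 groups, and 3 met it. Rpl12 was 214.6 in knockout 3 against 319.9 to 344.4 in the other knockout livers. Rpl7l1 was 1846.9 in knockout 1 against 1451.6 to 1508.2. Rps24 at its brightest probe set was 21666.2 in knockout 2 against 23025.8 to 23302.3. Wild type groups of 3 were not checked.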

How the results depend on the processing

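The 3 calls were marginal. The count of called members was 1 with equal array medians, 5 after quantile normalization, 9 at an adjusted p under 0.1, and 0 with no filter, with eBayes without a trend, with unshared probe sets only, and with each gene's probe sets averaged. In these 4 runs 18, 11, 3 and 9 members were lower at an unadjusted limma p under 0.05. Without 1 array it ran from 0 to 5 (0 without wild type 1, 2 or 3, with 14, 19 and 10 at an unadjusted p under 0.05, 5 without knockout 1 and 1 without knockout 2). The count over all probe sets was 473 with no filter, 584 without a trend, 611 with unshared probe sets and 445 per gene, and 127 to 1006 without 1 array. Member genes higher in knockout numbered 18 with equal medians, 12 after quantile normalization and 4 of 20 with unshared probe sets, and 5 to 15 without 1 array. The large subunit median was -0.017 with equal medians, -0.13 with gene means and -0.19 with unshared probe sets, and the small subunit median -0.059 with equal medians. Without 1 array they ran from -0.12 to -0.04 and from -0.16 to -0.09. Both medians were below 0 in every alternative run.

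With the replicate number as a block, 0 members and 351 probe sets in all were called, with 14 members at an unadjusted p under 0.05. Same-numbered arrays had correlations of 0.09, -0.06 and 0.06 between their deviations from group means. Wild type 1 and wild type 3 each correlated best with the knockout array of the same number, and wild type 2 with knockout 3, at 0.12. Such weak correlations in small groups cannot decide whether the numbers pair the arrays.

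Signs of small differences that were not called turned. With equal medians Rpl11, Rpl39 and Rplp2 were at 0.024, 0.013 and 0.017. With gene means Rpl41 was at -0.29 and Rps3 at -0.045. With unshared probe sets Rpl41 was at -0.56, Rps3 at -0.091 and Rps9 at 0.10. Without 1 array Rpl7l1 ran from -0.050 to 0.10 and Rps3 from -0.048 to 0.075. Scaling to equal medians moved all fold changes by the same amount. With unshared probe sets Rpl41, Rps3 and Rps9 were represented by other probe sets, 1433530_at, 1455600_at and 1426958_at. Gene means averaged all tested probe sets of a gene. What lay behind the changes without 1 array was not tested. Dim probe sets, where noise weighs most, carry the least certain values.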
